A study of Mus musculus with 16 samples.

Results

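The genes of the pro-B and pre-B cell program were followed in bulk RNA-seq of cells from the knees of wild-type and Trem2-/- mice, with or without joint injury. The set holds 8 genes: Rag1, Rag2, Dntt, Vpreb1, Vpreb3, Igll1, Ebf1 and Pax5. All 8 were among the 13733 genes listed in the table, and all 8 were among the 13173 genes kept for testing, which reached 1 CPM (reads scaled for library depth) in no fewer than 4 of 16 libraries. The set was chosen by measured values: Rag1 and genes of the pro-B stage had already been seen to be lower in Trem2-/- than in WT joints at D7 in these libraries, so that contrast, and the interaction that contains it, are given below as a description: no member gets a p in them, and the counts of calls printed there are read as nothing. The comparisons between D7 and D0 within a genotype, and between the genotypes at D0, were not used for the choice. Members and lists were nonetheless chosen with earlier results of these data known. The comparisons of D7 with D0 still share their D7 libraries with the contrast of the choice, so they are not independent of it. Low values in Trem2-/- D7 favour a fall in Trem2-/- mice, and one larger than in WT mice.

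A B cell builds its receptor in steps. In pro-B cells the recombinase made of the Rag1 and Rag2 proteins cuts the heavy chain locus and terminal transferase, the product of Dntt, adds bases at the joints; in pre-B cells the new heavy chain is brought to the surface with a surrogate light chain, made of the Vpreb1 and Igll1 products, and this pre-B receptor signals through Cd79a and Cd79b. Ebf1 and Pax5 are the transcription factors that specify the B lineage and commit cells to it. In the adult mouse these steps take place mostly in bone marrow, and mature B cells outside it have largely shut down the recombinase and the surrogate light chain.

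The design had 4 groups of 4 mice, all on the C57BL/6 background: uninjured wild-type (WT D0), wild-type 7 days after injury (WT D7), and the same time points in Trem2 knockout mice (Trem2-/- D0 and Trem2-/- D7). Trem2 encodes a lipid-sensing receptor of macrophages and microglia. The knockout was a germline line bought from a repository, so every cell of those mice carried it, and the injury was a rupture of the anterior cruciate ligament by a single compressive load on the tibia. The labels give 10 weeks as the age at injury in one field and 16 weeks as the age in another, and the study's methods name male mice. For the bulk cells the methods refer to the single-cell procedure, in which cells were digested out of the joint in a way meant to keep marrow out, red cells were lysed, and CD45+ and CD45- cells were separated on magnetic beads; which of these fractions the bulk RNA came from is not given in the sources used here. The labels instead describe homogenised whole joints, and their extraction text speaks of control and T1DM mice, which match none of these groups. One library was made from each mouse.

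Libraries held between 11567073 and 32867818 reads on the listed genes (median 16399898), and 3 reads corresponded to between 0.101 and 0.250 CPM, a limit that covers counting error only. Trem2 itself had 2.51, 4.88, 5.26 and 5.61 CPM in WT D0 replicates 1 to 4 and 15.1, 22.5, 18.9 and 10.7 CPM in WT D7. It had 1.88, 0.948, 2.68 and 1.70 CPM in Trem2-/- D0 and 4.13, 4.69, 3.42 and 4.84 CPM in Trem2-/- D7. Trem2 reads were thus lower but present in the knockout libraries, without overlap of the genotypes at D7 and with overlap at D0, where the lowest WT library lay below the highest Trem2-/- library. The groups were otherwise taken from the labels.

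The genes sit in 6 chromosomal neighbourhoods (GRCm38, GENCODE M21). Rag1 (chr2:101638282-101649501, minus strand) and Rag2 (chr2:101624718-101632529, plus strand) point at each other across 5752 bases, and Igll1 (chr16:16860671-16863985, minus strand) lies 4417 bases downstream of Vpreb1 (chr16:16868403-16870843, minus strand). Dntt (chr19:41029275-41059525), Vpreb3 (chr10:75943057-75949657) and Ebf1 (chr11:44617317-45008091) are on the plus strand and Pax5 (chr4:44524757-44710487) is on the minus strand. Of the 75-base windows of Vpreb1 transcripts, 12.9% also occur in other genes, chiefly its paralog Vpreb2, so its count could hold or lose some reads of that gene. In Vpreb1 9.01% of exon bases overlap a gene on the opposite strand, in Pax5 8.60% and in Rag2 6.07%. How the counting treated strand is not given in the sources used here, so reads from those bases may not be told apart.

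The promoters of 3 members are shown because these genes, one for each of the recombinase, the surrogate light chain and the pre-B stage marker Vpreb3, fell together after injury and because their upstream windows hold no annotated exon. Each line is the 250 bases before the RefSeq start site on GRCm38.p6, read 5′ to 3′ on the gene's strand. Capitals mark matches, on either strand, to the EBF core CCCNNGGG, the E-box CAGNTG that E2A proteins bind, the Ikaros core TGGGAA, the ETS core GAGGAA or the octamer ATTTGCAT.
Rag1 (chr2:101649533-101649782, minus strand): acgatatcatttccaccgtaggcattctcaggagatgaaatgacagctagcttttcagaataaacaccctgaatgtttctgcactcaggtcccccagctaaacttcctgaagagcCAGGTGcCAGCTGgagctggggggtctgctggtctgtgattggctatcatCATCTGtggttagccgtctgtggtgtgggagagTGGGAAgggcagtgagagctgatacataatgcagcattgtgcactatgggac
Igll1 (chr16:16863986-16864235, minus strand): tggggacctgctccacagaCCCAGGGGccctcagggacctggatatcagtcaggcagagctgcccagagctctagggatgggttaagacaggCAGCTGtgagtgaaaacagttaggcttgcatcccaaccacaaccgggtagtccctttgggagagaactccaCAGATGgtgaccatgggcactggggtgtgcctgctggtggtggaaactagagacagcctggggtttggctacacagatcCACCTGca
Vpreb3 (chr10:75948050-75948299, plus strand): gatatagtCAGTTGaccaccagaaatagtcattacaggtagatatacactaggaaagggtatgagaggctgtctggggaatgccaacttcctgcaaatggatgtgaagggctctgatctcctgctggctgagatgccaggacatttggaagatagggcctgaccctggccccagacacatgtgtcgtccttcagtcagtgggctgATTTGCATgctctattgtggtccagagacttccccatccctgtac
The Rag1 window held 3 E-boxes and 1 Ikaros core, the Igll1 window 1 EBF core and 3 E-boxes, and the Vpreb3 window 1 E-box and 1 octamer. Over the 32851 promoter windows of the same length, 11.8% held the EBF core, 44.8% the E-box, 21.6% the Ikaros core, 23.3% the ETS core and 1.60% the octamer, so the octamer is the rare match among these. Windows were found for all 8 members. Those of Rag2, Dntt and Pax5, genes that also fell, held no annotated exon either, and that of Rag2 held 1 ETS core. The Vpreb3 window lies inside the gene as GENCODE places it, since the GENCODE start is upstream of the RefSeq start site. The windows of Dntt and Pax5 held no match to any of the 5 motifs, which says only that these letters are not in the window. A match is a string of letters and was not examined for binding.

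All of the genes but Ebf1 shared one pattern, high in uninjured and low in injured joints, and Ebf1 stood apart. The mean levels of Rag1, Rag2, Dntt, Vpreb1, Vpreb3, Igll1 and Pax5 all followed the order WT D0, Trem2-/- D0, WT D7, Trem2-/- D7 from high to low. In this order WT D0 and Trem2-/- D0 overlapped in each of the 7 genes. Trem2-/- D0 and WT D7 did not overlap for Dntt, Vpreb1, Vpreb3, Igll1 and Pax5 and did for Rag1 and Rag2. Ebf1 had the order Trem2-/- D7, WT D7, WT D0, Trem2-/- D0, and every pair of neighbours in it overlapped. Per kilobase of exon, the highest of the 8 in WT D0 was Vpreb3 at 15.6 CPM per kilobase, while Rag1, Dntt, Vpreb1, Igll1 and Ebf1 lay between 4.03 and 6.73, Pax5 was at 1.18 and Rag2 at 0.634.

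**Figure D1:**
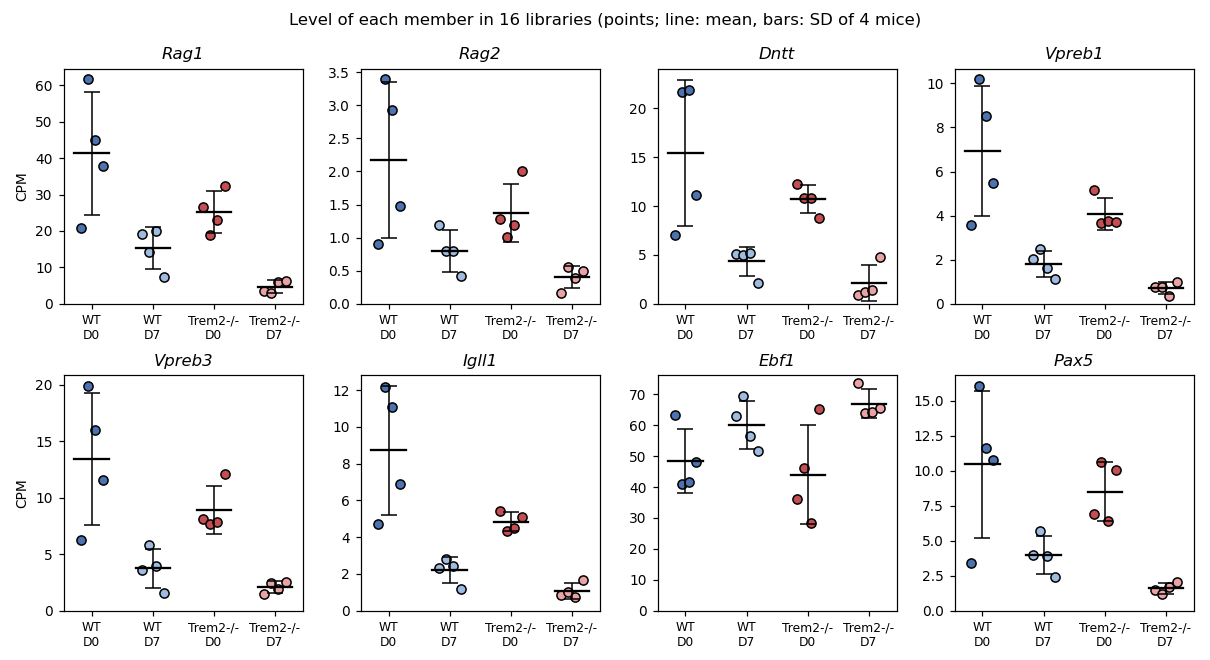
CPM (y axis, from 0, a separate scale for each gene) of the 8 genes in the 4 groups (x axis), with 1 point for each library, a line at the mean and bars for the SD (n = 4). In the 7 genes other than Ebf1 the points of Trem2-/- D7 lie below all points of Trem2-/- D0, whereas Ebf1 is highest on average in Trem2-/- D7 at 66.9 CPM.

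After injury in WT mice, 7 of the 8 genes fell. These 7 passed the study's limits on p and fold change, applied here to the unadjusted limma p (under 0.05, with a log2 fold change beyond 0.322 in either direction) and called the study's rule below. All 7 also had a Benjamini-Hochberg adjusted p under 0.05, which Rag2 and Pax5 lost in some alternatives: with the compared groups alone their limma adjusted p was 0.091 and 0.088, and without WT D0 replicate 3 it was 0.095 and 0.076. Over all genes tested, 18.2% were called lower in this comparison by the rule and 12.6% by the adjusted p. The median log2 fold change of the 8 genes was -1.40, against -0.04 over all genes tested. The individual libraries of 5 genes did not overlap between WT D7 and WT D0, all of them lower at D7, where 9.34% of the genes tested did so. Fold changes below are ratios of mean CPM, whereas log2 fold changes are from the fit on log2(CPM + 1), a scale that understates the change of low genes such as Rag2.

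The same 7 genes fell after injury in Trem2-/- mice and Ebf1 rose. The 7 genes and Ebf1 passed both the rule and the adjusted p. Over all genes tested, 27.9% were called lower and 26.5% higher by the rule, and 27.2% were lower by the adjusted p. The median log2 fold change of the 8 genes was -1.62, against -0.04 over all genes. All 7 genes that fell were lower in every Trem2-/- D7 library than in every Trem2-/- D0 library, which held for 26.3% of the genes tested. In bulk libraries, fewer cells of a type, less RNA per cell and more RNA from other cells cannot be told apart, since CPM is a relative measure.

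**Figure D2:**
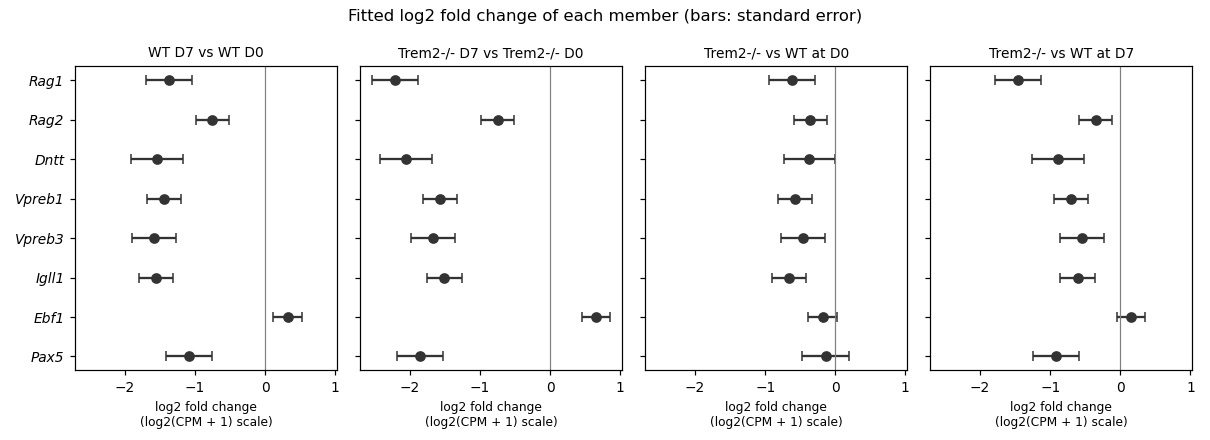
Fitted log2 fold change on the log2(CPM + 1) scale (x axis) of the 8 genes (y axis) in 4 comparisons, 1 panel each; points are limma estimates and bars their standard errors (4 libraries a group). In both comparisons of D7 with D0 the 7 genes other than Ebf1 lie left of 0, between -0.75 and -2.21, and Ebf1 lies right of it at 0.32 and 0.66; the panel at D7 shows the contrast used to choose the genes.

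Rag1, the DNA-cutting subunit of the V(D)J recombinase, had 20.8, 61.7, 44.9 and 37.8 CPM in WT D0 replicates 1 to 4 and 19.2, 14.2, 20.1 and 7.42 CPM in WT D7. All WT D7 libraries lay below all WT D0 libraries, with WT D0 replicate 1 just above the highest of them. The mean was 2.71-fold lower at D7, with a log2 fold change of -1.37 (SE 0.33, limma adjusted p = 0.0085). In Trem2-/- mice Rag1 had 26.7, 19.0, 22.9 and 32.3 CPM at D0 and 3.63, 3.03, 5.99 and 6.34 CPM at D7. The lowest uninjured library here was well above the highest injured one, and the mean was 5.31-fold lower (log2 fold change -2.21, SE 0.33, limma adjusted p = 8.8e-05).

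Rag2, the other recombinase subunit, was the lowest of the 8 genes and rested on 5 to 71 reads a library. It had 0.896, 3.39, 2.92 and 1.47 CPM in WT D0 and 1.18, 0.793, 0.793 and 0.416 CPM in WT D7. The groups overlapped, since WT D0 replicate 1 was below WT D7 replicate 1, and the mean was 2.73-fold lower at D7 (log2 fold change -0.76, SE 0.24, limma adjusted p = 0.0275). In Trem2-/- mice Rag2 had 1.28, 1.01, 1.19 and 2.01 CPM at D0 and 0.168, 0.551, 0.392 and 0.500 CPM at D7. The groups did not overlap, and the mean was 3.41-fold lower (log2 fold change -0.75, SE 0.24, limma adjusted p = 0.0146). With a pseudocount of 5 in place of 1 Rag2 was no longer called in either genotype, at -0.29 in WT and -0.24 in Trem2-/- mice.

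Dntt, which encodes terminal deoxynucleotidyl transferase, had 7.05, 21.7, 21.9 and 11.1 CPM in WT D0 and 5.08, 4.98, 5.21 and 2.14 CPM in WT D7. Uninjured WT mice fell on both sides of their mean while 3 of the 4 injured libraries were close to each other. The mean was 3.54-fold lower at D7 (log2 fold change -1.54, SE 0.37, limma adjusted p = 0.0083). In Trem2-/- mice Dntt had 12.3, 10.8, 10.9 and 8.81 CPM at D0 and 0.907, 1.24, 1.46 and 4.84 CPM at D7. Replicate 4 of Trem2-/- D7 was the high one, still below every uninjured library, and the mean was 5.07-fold lower (log2 fold change -2.06, SE 0.37, limma adjusted p = 0.00035).

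Vpreb1 and Igll1 encode the parts of the surrogate light chain. Vpreb1 had 3.59, 10.2, 8.51 and 5.50 CPM in WT D0 and 2.02, 2.49, 1.62 and 1.13 CPM in WT D7. No libraries overlapped, and the mean was 3.83-fold lower at D7 (log2 fold change -1.44, SE 0.24, limma adjusted p = 0.0013). In Trem2-/- mice it had 5.18, 3.66, 3.76 and 3.71 CPM at D0 and 0.773, 0.758, 0.336 and 1.00 CPM at D7. Injured Trem2-/- libraries held 6 to 23 Vpreb1 reads, and the mean was 5.69-fold lower (log2 fold change -1.57, SE 0.24, limma adjusted p = 0.00011).

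Igll1 followed its partner closely. It had 4.72, 12.2, 11.1 and 6.92 CPM in WT D0 and 2.30, 2.83, 2.45 and 1.19 CPM in WT D7. The mean was 3.98-fold lower at D7, the largest ratio of the 8 genes in WT mice, with no overlap (log2 fold change -1.56, SE 0.24, limma adjusted p = 0.00094). In Trem2-/- mice it had 5.44, 4.36, 4.47 and 5.10 CPM at D0 and 0.874, 1.03, 0.728 and 1.67 CPM at D7. Uninjured Trem2-/- mice were close to each other here, and the mean was 4.50-fold lower at D7 (log2 fold change -1.51, SE 0.24, limma adjusted p = 0.00016).

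Vpreb3 encodes a protein of the endoplasmic reticulum of B cell precursors that is related to Vpreb1 in sequence. It had 6.21, 19.9, 16.0 and 11.6 CPM in WT D0 and 3.62, 5.83, 3.96 and 1.54 CPM in WT D7. The groups stayed apart by a narrow margin, and the mean was 3.59-fold lower at D7 (log2 fold change -1.58, SE 0.31, limma adjusted p = 0.0031). For the Trem2-/- groups, Vpreb3 had 8.07, 7.64, 7.81 and 12.1 CPM at D0 and 1.48, 2.48, 1.90 and 2.50 CPM at D7. The highest uninjured library was replicate 4, no libraries overlapped, and the mean was 4.25-fold lower (log2 fold change -1.67, SE 0.31, limma adjusted p = 0.00048).

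Pax5, the B lineage commitment factor, had 3.41, 16.1, 11.6 and 10.7 CPM in WT D0 and 3.97, 5.66, 3.93 and 2.38 CPM in WT D7. WT D0 replicate 1 fell among the injured libraries while the other 3 lay above all of them. The mean was 2.62-fold lower at D7 (log2 fold change -1.08, SE 0.33, limma adjusted p = 0.0246). For the Trem2-/- groups, Pax5 had 6.92, 10.6, 6.44 and 10.0 CPM at D0 and 1.45, 1.17, 1.68 and 2.09 CPM at D7. The groups were far apart, and the mean was 5.33-fold lower (log2 fold change -1.86, SE 0.33, limma adjusted p = 0.00031).

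Ebf1, which acts before Pax5 in B cells and is also made by adipocyte precursors and other stromal cells, went the other way. It had 63.3, 41.1, 41.6 and 48.1 CPM in WT D0 and 63.1, 69.6, 56.5 and 51.7 CPM in WT D7. The groups overlapped through WT D0 replicate 1, and the log2 fold change of 0.32 (SE 0.20) did not pass the rule (limma adjusted p = 0.23). Without that library it did, at 0.45. For the Trem2-/- groups, Ebf1 had 36.1, 46.3, 28.5 and 65.3 CPM at D0 and 73.8, 64.0, 64.2 and 65.6 CPM at D7. Only replicate 4 of Trem2-/- D0 reached the injured range, and the mean was 1.52-fold higher at D7 (log2 fold change 0.66, SE 0.20, limma adjusted p = 0.0125).

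The 7 genes also varied together from mouse to mouse. Over the 16 libraries the 21 pairs among them had Pearson's r on the log2 scale between 0.89 and 0.99, and between 0.62 and 0.94 for deviations from the group means. The points share the libraries and the group differences, and the values are a description. The 7 pairs with Ebf1 had r between -0.68 and -0.53, and between -0.33 and 0.01 for the deviations. The summed level of the 7 genes showed which mice were high: in WT D0 it was 46.7, 145, 117 and 85.1 CPM, and in WT D7 37.4, 36.8, 38.0 and 16.2 CPM. It was 65.9, 57.0, 57.4 and 74.0 CPM in Trem2-/- D0 and 9.27, 10.3, 12.5 and 18.9 CPM in Trem2-/- D7. Uninjured WT mice were spread over a wider range than uninjured Trem2-/- mice. Rag1 made up between 29.5% and 52.8% of the sum in a library.

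The genes most like each member were sought over the 16 libraries by Pearson's r, leaving out genes that averaged under 5 CPM. For Rag1 they were Fcrla (r = 0.98), Bcl7a (0.97) and Pou2af1 (0.97), and for Pax5 they included Cd79a (0.98) and Cd22 (0.97). Ptprcap came first for Dntt (0.97), Vpreb1 (0.97), Vpreb3 (0.97) and Igll1 (0.97), and Atp1b1 came first for Rag2 (0.94). Ebf1 had a list of its own, with Abhd4 (0.97), Tcf12 (0.96) and Nck2 (0.93). No gene was on the list of both Ebf1 and another member. For deviations from the group means the r of these genes lay at 0.92 for Fcrla with Rag1, 0.92 for Cd79a with Pax5 and 0.94 for Abhd4 with Ebf1.

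The next comparison asked whether the 8 genes moved with the signalling chains Cd79a and Cd79b, which B cells of nearly all stages carry. Cd79a fell from a range of 34.4 to 106 CPM to one of 14.2 to 32.5 CPM in WT mice (log2 fold change -1.45, SE 0.31, limma adjusted p = 0.0049) and from 39.8 to 76.4 CPM to 8.13 to 13.4 CPM in Trem2-/- mice (log2 fold change -2.32, SE 0.31, limma adjusted p = 4.7e-05). Each member's log2(CPM + 1) was taken minus the mean of both chains in the same library, and D7 was compared with D0 by an exact two-sided permutation test over 70 assignments, whose smallest p is 0.0286. The adjustment ran over both genotypes and all 8 genes. Ebf1 rose relative to the chains at that smallest p, by 1.81 log2 units in WT and by 2.96 in Trem2-/- mice (exact permutation p = 0.0286, adjusted p = 0.0914 in both). No test passed the adjustment.

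Rag1 moved with the receptor chains. Its level relative to them differed between D7 and D0 by 0.12 log2 units in WT (exact permutation p = 0.514) and by 0.09 in Trem2-/- mice (p = 0.686, exact permutation test). Rag2 (0.74 in WT and 1.55 in Trem2-/-) and, in Trem2-/- mice, Pax5 (0.44) also reached an exact permutation p of 0.0286. These differences depended on the pseudocount and were smaller without it. With no pseudocount, which was possible since every library had reads on every member, the differences were 0.20 for Rag2 in WT, 0.59 for Rag2 in Trem2-/- and 0.03 for Pax5 in Trem2-/- mice, with exact permutation p-values of 0.543, 0.114 and 0.914. In that form Ebf1 alone stayed at an exact permutation p of 0.0286, with differences of 1.87 and 3.12. Its adjusted p in this permutation test was 0.229 in both genotypes. The other 7 genes then lay between -0.42 (Igll1 in WT mice) and 0.59 (Rag2 in Trem2-/- mice).

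**Figure D3:**
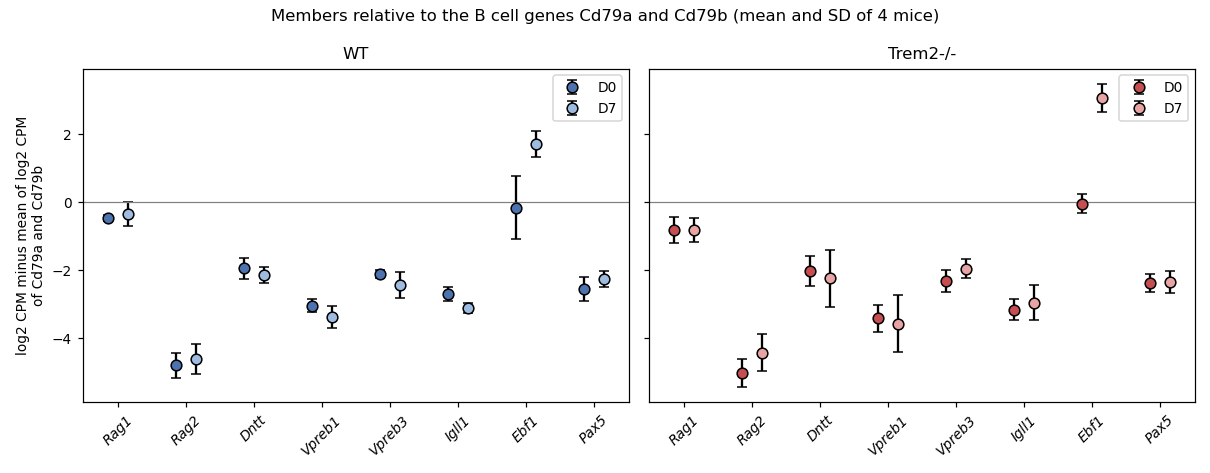
Level of the 8 genes (x axis) relative to Cd79a and Cd79b in the same library (y axis, log2 CPM with no pseudocount, minus the mean log2 CPM of both chains), as mean and SD of 4 libraries at D0 and D7, with 1 panel for each genotype. Ebf1 moved up by 1.87 in WT and 3.12 in Trem2-/- mice, while the means of the other 7 genes at D7 stayed within 0.59 of those at D0.

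Other genes of early B cells fell along with the members. For the counts in this paragraph, 18.2% of all genes tested were called lower in WT and 27.9% in Trem2-/- mice. Of 15 further transcription factors, 11 were called lower in WT mice after injury and 11 in Trem2-/- mice, where 1 rose. Spib, an ETS factor of B cells and plasmacytoid dendritic cells, fell in both (log2 fold changes -1.40 and -2.26; limma adjusted p = 0.0034 and 3.0e-05), as did Myb (-1.50 and -2.23; limma adjusted p = 0.0038 and 5.5e-05), whereas Foxo1, the highest of the list, had 0.15 and 0.30 and was not called. Foxo1 and Myb are also made outside the B lineage. Of 9 tested genes of the pre-B receptor and its signalling, 8 fell in WT and 9 in Trem2-/- mice, with Cd79b at -1.54 and -2.28 (limma adjusted p = 0.0016 and 2.2e-05) and the kinase Syk at -0.62 and -1.63 (limma adjusted p = 0.0388 and 3.6e-05). Of 12 early B surface genes, 8 and 9 fell, among them Ly6d (-1.59 and -2.33; limma adjusted p = 0.0014 and 2.1e-05). Cd93, which endothelial and myeloid cells also carry, had 0.14 and 0.10 and was not called.

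The factors that finish V(D)J joining are used by all cells to repair broken DNA. Of 10 tested, 3 were called lower in each genotype, where 18.2% of all genes were in WT and 27.9% in Trem2-/- mice, with list medians of -0.12 and -0.14. Dclre1c, the nuclease Artemis that opens the hairpins left by the recombinase, was at -0.68 and -1.51 (limma adjusted p = 0.0073 and 1.4e-05). Of 6 tested factors by which marrow stroma feeds B cell precursors, 1 was lower and 1 higher in WT, and 0 lower and 1 higher in Trem2-/- mice by the study's rule. Cxcl12, the chemokine that holds B cell precursors in marrow, was the highest of these and had log2 fold changes of -0.12 and -0.14, not called in either genotype.

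Markers of mature B cells and of other blood lineages fell too, and plasma cell genes were mixed. By the same rule, 18.2% of all genes tested were lower in WT and 27.9% in Trem2-/- mice. Higher were 2538 and 3493 of the 13173 genes. All 10 tested mature B cell markers were called lower in both genotypes (medians -0.92 in WT and -1.75 in Trem2-/-), with Ms4a1, the CD20 gene, at -1.31 in WT and Blk at -1.36 and -2.08. Of 5 plasma cell genes 2 were lower and 1 higher in WT, and 2 were lower and 2 higher in Trem2-/- mice, with list medians of 0.20 and 0.27. Sdc1, the syndecan of plasma cells that epithelial and stromal cells also carry, rose by 1.12 and 1.74 (limma adjusted p = 0.0155 and 0.00031). Jchain, which links immunoglobulin units, was at -2.33 and -1.57 (limma adjusted p = 0.0048 and 0.0163). All 7 erythroid precursor markers tested, all 5 marrow myeloid precursor markers and all 8 neutrophil markers were lower in both genotypes, and so were the 6 pan-leukocyte genes.

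The markers of marrow precursors were well above 0 in every group. The summed level of Elane, Mpo, Prtn3, Ctsg and Ms4a3 ranged from 608 to 2477 CPM in WT D0, from 230 to 544 in WT D7, from 866 to 4034 in Trem2-/- D0 and from 257 to 357 in Trem2-/- D7. The summed level of 7 erythroid markers ranged from 1376 to 2294, 412 to 1482, 1038 to 2159 and 342 to 830 CPM in the same order of groups. That of the 6 pan-leukocyte genes ranged from 2678 to 5222, 1514 to 3335, 3322 to 5728 and 1197 to 1501 CPM. None of the listed markers in these 3 lists was at 0 in all libraries of a group. These levels moved with the pro-B and pre-B genes between D0 and D7, and their part in the result was not tested. Relative to Ptprc, the gene of the leukocyte antigen CD45, in place of the Cd79 chains, 0 of the 8 genes differed in WT mice and 1, Ebf1, in Trem2-/- mice (exact permutation test, unadjusted).

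Lists of other cells that could carry some of the 8 genes gave mixed counts. Beside them, 18.2% of all genes tested were called lower in WT and 27.9% in Trem2-/- mice. Called higher were 2538 and 3493 of the 13173 genes. Of 9 tested markers of immature T cells, which also use the recombinase and Dntt, 5 were lower in WT and 7 in Trem2-/- mice, and 1 was higher in each. The riser was Thy1, which fibroblasts also make, at 1.82 and 2.33 (limma adjusted p = 0.0018 and 5.6e-05), while Cd3d fell from a mean of 2.93 to 0.925 CPM in WT mice and from 2.78 to 0.517 CPM in Trem2-/- mice. Of 8 plasmacytoid dendritic cell markers 5 were lower in each genotype, Siglech at -1.28 and -2.30 (limma adjusted p = 0.0038 and 2.0e-05), and 1 rose in Trem2-/- mice. The riser was Tcf4, the highest of the list, at 0.30 in WT, not called, and 0.75 in Trem2-/- mice (limma adjusted p = 0.0121). Of 9 tested adipocyte and stromal genes, 4 rose in each genotype and 1 fell in WT and 2 in Trem2-/- mice. Lum, a collagen-binding proteoglycan of fibroblasts, rose by 1.69 and 3.25 log2 units (limma adjusted p = 0.0211 and 0.0001) and Pdgfra by 1.14 and 1.80 (limma adjusted p = 0.034 and 0.001), the direction in which Ebf1 moved. The fallers were adipocyte genes, and falls were no more frequent in this list than over all genes tested. Adipoq fell in WT mice (-0.93, limma adjusted p = 0.0164). Fabp4 and Pparg fell in Trem2-/- mice (-0.90 and -0.62, limma adjusted p = 0.0395 and 0.0669). Dcn, the highest of the list, had 0.22 and 0.79 and was not called. The part of stromal cells in the Ebf1 level was not tested.

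Most macrophage genes moved against the B cell genes. Of 7 tested, 6 rose in WT mice, and 5 rose and 1 fell in Trem2-/- mice. Of all 13173 genes tested, 2538 were called higher in WT and 3493 in Trem2-/- mice. The faller was Cd68, at -0.42 in Trem2-/- mice (limma adjusted p = 0.0078). C1qa, a complement gene of macrophages, was at 2.25 and 2.02 (limma adjusted p = 0.0013 and 0.00045). Cell cycle genes, which dividing pre-B cells use with all other dividing cells, were called lower in 4 of 12 cases in WT and 7 of 12 in Trem2-/- mice, against 18.2% and 27.9% of all genes, and 2 and 5 of them had an adjusted p under 0.05. Mki67, the highest of them, had -0.45 in WT, not called, and -1.04 in Trem2-/- mice.

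**Figure D4:**
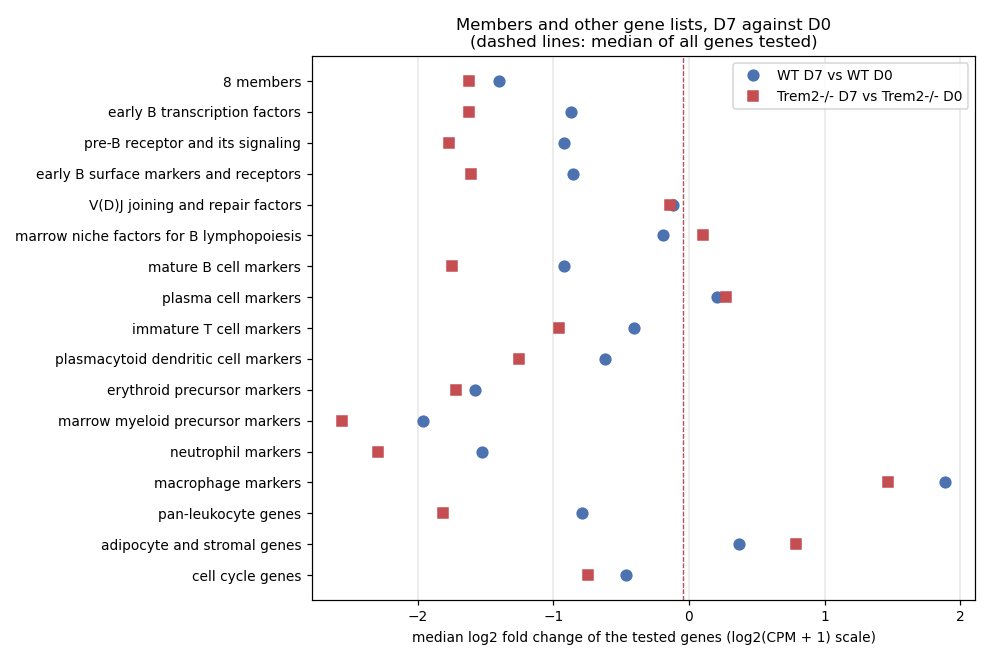
Median log2 fold change from D0 to D7 on the log2(CPM + 1) scale (x axis) of the tested genes of the 8 members and 16 other lists (y axis); circles are WT, squares Trem2-/- mice, and dashed lines the median of all genes tested (-0.04 in both). The members lie at -1.40 and -1.62, with most blood cell lists also left of 0, while macrophage genes lie at 1.89 and 1.47.

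Between the genotypes in uninjured joints, 2 of the 8 genes were called lower in Trem2-/- mice by the study's rule, where 1.37% of all genes tested were, and 0 had an adjusted p under 0.05. These were Igll1, with a mean 1.80-fold lower in Trem2-/- D0 (log2 fold change -0.66, SE 0.24), and Vpreb1, with a mean 1.70-fold lower (log2 fold change -0.57, SE 0.24). Both had a limma adjusted p of 0.9996. The groups overlapped in all 8 genes, where 0.539% of the genes tested were lower without overlap. The other 6 log2 fold changes ran from -0.62 for Rag1 to -0.14 for Pax5. The count rested on single WT mice: it was 6 without WT D0 replicate 1, which was the lowest uninjured WT mouse in the 7 genes, 0 without WT D0 replicate 2 or 3, and 1 without Trem2-/- D0 replicate 2 or 3.

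At D7, the contrast in which these genes were selected on their values, Trem2-/- libraries held less of 7 of the genes and more of Ebf1. Mean levels were 4.75 ± 1.66 against 15.2 ± 5.81 CPM for Rag1, 1.60 ± 0.39 against 3.99 ± 1.34 CPM for Pax5, and 0.717 ± 0.277 against 1.82 ± 0.58 CPM for Vpreb1 (Trem2-/- D7 against WT D7, mean ± SD, n = 4). These were the 3 genes without overlap of the groups, which 4.78% of the genes tested showed in that direction. Log2 fold changes ran from -1.46 for Rag1 and -0.91 for Pax5 through -0.88 for Dntt, -0.70 for Vpreb1, -0.61 for Igll1 and -0.55 for Vpreb3 to -0.35 for Rag2, and Ebf1 was at 0.16. By the study's rule 5 of the 8 were lower, against 4.53% of all genes tested, and Vpreb3, Rag2 and Ebf1 were not called. Nothing is read from this count or from that of the genes without overlap, since the contrast chose the genes. The count of calls was 3 without Trem2-/- D7 replicate 1 or 3 or without WT D7 replicate 2 or 3. No gene of the 13173 had an adjusted p under 0.05 in this contrast.

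The change with injury in Trem2-/- mice minus that in WT mice ran from -0.84 log2 units for Rag1 to 0.34 for Ebf1. By the study's rule in limma, and also in edgeR and voom on the whole reads, 0 of the 8 were called, against 7.79% of all genes tested in either direction, and nothing is read from this count either. It was 2 without WT D0 replicate 2, and 1 without Trem2-/- D0 replicate 4 or WT D7 replicate 4. Each group enters 2 of the 4 pairwise contrasts, so their values share libraries.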

How the data were processed

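Cells from 16 mouse knee joints were profiled by bulk RNA-seq, with 4 libraries in each group, and groups were taken from the labels. The authors used STAR (mm10) and featureCounts for alignment and gene counts, and deposited normalized signal values: CPM in which the library size is scaled by an edgeR TMM factor. Versions, gene annotation, strand setting and the low-count filter are not given in the sources used here, and the labels and the study's methods describe different library kits. All low values were whole multiples of the value of 1 read (100% of values within 0.1 read), so reads were recovered. Reads per library ranged from 11567073 to 32867818, and precision is limited by counting for genes such as Rag2.

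Tests covered 13173 genes that reached 1 CPM in no fewer than 4 libraries. They were run on log2(CPM + 1) with limma 3.58.1 in R 4.3.3 (eBayes with trend, the 4 groups as one factor). A gene counted as called at a limma p under 0.05, taken here without adjustment since the methods name none, and a log2 fold change beyond 0.322, the study's fold limit, and Benjamini-Hochberg adjustment ran over all genes tested. Limma p-values set the difference between groups against the spread between libraries, 1 from each mouse. Levels relative to Cd79a and Cd79b were compared by exact permutation. The members and lists were chosen with earlier results of these data known. Named genes are Trem2, the members, the gene of highest mean CPM and the 2 of largest change in each list, and the 3 genes most correlated with each member. The values of 1 gene that this rule names are not reported here. Gene positions are from GENCODE M21 and promoters from RefSeq. On simulated counts of 13037 genes for WT D7 against WT D0, 100% of 200 genes changed 3-fold and 4.39% of unchanged genes were called. The simulation gave all genes the same spread between mice. It was narrower than that of Rag1 in WT D0 (mean 41.3, SD 16.9 CPM), so these shares do not carry over to the members. Alternatives were other pseudocounts, filters, normalizations, thresholds and tools (edgeR 4.0.16 and voom on whole reads), a replicate block and each library left out.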

Additional observations from a re-analysis of the deposited data

Results flagged for a closer look

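Among 32 sets of 4 libraries (8 genes in 4 groups), 5 held a library far from the other 3, by the gap to its nearest neighbour as a share of the group's range. The limit was Dixon's critical value for 4 samples, which chance passes in about 1 in 20 groups. Dntt in WT D7 replicate 4 was the lowest, at 2.14 CPM against 4.98 to 5.21 in the others (share 0.928), and Dntt in Trem2-/- D7 replicate 4 was the highest, at 4.84 CPM against 0.907 to 1.46 (share 0.860). Vpreb1 in Trem2-/- D0 replicate 1 was the highest, at 5.18 CPM against 3.66 to 3.76 (share 0.938). Vpreb3 in Trem2-/- D0 replicate 4 was the highest, at 12.1 CPM against 7.64 to 8.07 (share 0.904). Ebf1 in Trem2-/- D7 replicate 1 was the highest, at 73.8 CPM against 64.0 to 65.6 (share 0.835).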

How the results depend on the processing

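Counts of the 8 genes called after injury were 7 in WT and 8 in Trem2-/- mice. With only genes of at least 5 CPM on average, which left 5 of the 8, the counts were 4 in WT, 5 in Trem2-/- mice, 0 between the genotypes at D0 and 3 at D7. At D0 the count of 2 became 1 with a fold change over 1.5, 1 with a pseudocount of 0.1, 1 with quantile normalization, 1 with the compared groups alone and 0 with the adjusted p, and ranged from 0 to 6 with 1 library left out. At D7 the count of 5 between the genotypes became 0 with the adjusted p and 1 with a pseudocount of 5, and ranged from 3 to 6 with 1 library left out; for the interaction the range was 0 to 2. With 1 library left out, the D0 log2 fold change of Ebf1 ranged from -0.39 to 0.0016 (without Trem2-/- D0 replicate 3) and that of Pax5 from -0.55 to 0.11 (without WT D0 replicate 2). The adjusted p of Rag2 and Pax5 in WT mice reached 0.095 and 0.088 at most. The cause of these changes was not tested. Shares of all genes called under each setting are not given here, so the counts show only how they moved with the setting.

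Relative to Cd79a and Cd79b, 2 genes differed in WT and 3 in Trem2-/- mice at an exact permutation p of 0.0286. The WT count became 1 with a pseudocount of 0.1, 1 with none (chosen after seeing the data) and 0 with Ptprc as the reference. The Trem2-/- count became 6 with a pseudocount of 5, 1 with none and 1 with Ptprc. Leaving out 1 library cannot pass 0.05 there, since the smallest p of 4 against 3 is 0.0571.

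Whether replicate numbers pair the mice is not given in the sources used here. Deviations of same-numbered libraries correlated at -0.51 to 0.41, over 0.1 in 11 of 24 pairs, which cannot decide it. The fit with the replicate block called 7, 8, 2, 5 and 0 genes in the 5 comparisons, the counts without the block. Depth limits Rag2 and, in Trem2-/- D7, Vpreb1.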
